A study of Danio rerio with 48 samples.

Results

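The change of the zebrafish whole-embryo transcriptome between 6 and 10 hours post fertilization (hpf) was measured by bulk RNA sequencing of 8 libraries, 4 from each age. The comparison took every gene that passed a filter on low counts, which kept 20635 of the 36109 genes in the deposited table. Both groups were wild type embryos, whole and with their yolk, and no treatment or mutation is named in the labels. The labels give no strain, and they do not say how many embryos were pooled or whether the 4 libraries of an age came from separate clutches, so p-values measure the spread between these libraries, which may be technical. The series holds 48 samples in all: whole embryo, yolk and body tissue at 6, 10, 26 and 48 hpf. Yolk libraries at 6 and 10 hpf entered 1 comparison, the later whole-embryo libraries are given as levels only, and 16 body samples were not analysed here.

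Between these ages a zebrafish embryo gastrulates. At the earlier age cells at the margin have begun to move inward and the dorsal organizer, called the shield, is in place; by the later age the cell sheet has closed over the yolk and the tail bud has formed. Transcripts laid down in the egg are still being removed, Nodal, BMP, Wnt and Fgf signals assign germ layers and axes, and the neural plate, somite precursors and other organ fields are set out. The yolk cell carries a syncytial layer that signals to the embryo and exports yolk lipid as lipoprotein.

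The libraries held 35192206 to 38507223 counts each. Levels are given as CPM, that is counts scaled to a common library size with the trimmed mean of M values (TMM), and are compared between ages for 1 gene, not between genes. In a principal component analysis of log2 CPM the first component held 66.9% of the variance and separated the ages. The 6 hpf libraries lay at -107, -93.0, -130.0 and -117 on it (replicates 1 to 4) and the 10 hpf libraries between 108 and 117, so replicate 2 of 6 hpf lay nearest to the later age. Replicates 1 and 2 of 6 hpf also held transcripts of differentiated muscle, and replicate 2 held more of several genes that were high at 10 hpf. Some of these values stand beside the results they touch, and others are given with the dependence on processing. Where the few 6 hpf counts of a gene lay mainly in replicates 1 and 2, the size of its rise is poorly set. Markers of the embryo proper (tbxta, of the mesoderm margin) and of the yolk syncytial layer (mxtx1) were present in all 8 libraries.

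Of the 20635 genes tested, 5635 (27.3%) rose and 5120 (24.8%) fell from 6 to 10 hpf at an adjusted p under 0.05, and 9880 were not called. Changes shown to be over 2-fold were fewer, 2411 genes higher (11.7%) and 1485 lower (7.20%). The median log2 change was 1.54 among genes that rose, -1.11 among genes that fell and 0.036 over all genes. Genes that rose had a median of 3.29 CPM at 6 hpf, and genes that fell had a median of 35.8 CPM there. At 10 hpf the medians were 12 and 16.5 CPM. Sorting genes by the direction of their change in part sets the contrast at 6 hpf. Rises also reached further: 264 genes rose and 57 fell by over 5 on the log2 scale. From under 0.5 CPM at 6 hpf, 81 genes reached at least 10 CPM at 10 hpf, and 8 genes went the other way. Of all genes tested, 26.8% lay higher in every 10 hpf library than in every 6 hpf library, and 22.5% lay lower. With library totals in place of TMM the median log2 change of all genes was 0.32. That scaling gave 7452 rises and 3481 falls, so rises made up 68.2% of calls in place of 52.4%. A lower level in bulk RNA cannot tell fewer cells of a type from less RNA per cell.

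**Figure D1:**
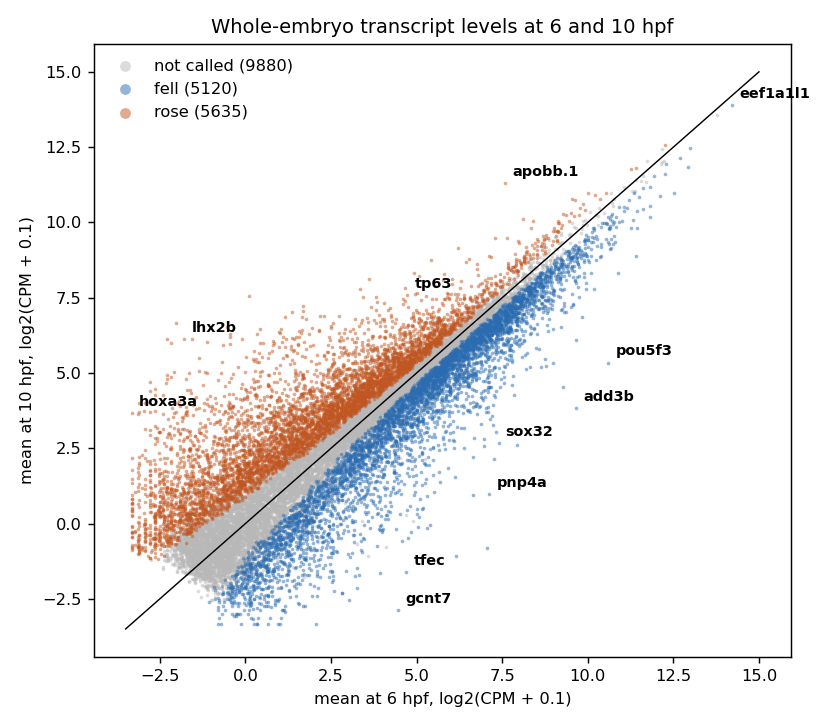
Mean level of each of the 20635 tested genes at 6 hpf (horizontal) and 10 hpf (vertical), both as log2(CPM + 0.1) over 4 libraries, with genes that rose in orange, genes that fell in blue and others in grey. Points far above the diagonal, such as lhx2b, start near the lower end of the 6 hpf axis, whereas pou5f3 and add3b start high and fall.

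The gene lists below were counted over the members that passed the filter. A gene that reaches the filter level in every library of only 1 age passes through that age, which favours a call of higher there. Of the tested genes, 2471 passed only through 10 hpf and 1006 only through 6 hpf. List counts are therefore descriptions, to be read against the 27.3% of all genes that rose and the 24.8% that fell. Members that passed only through 10 hpf included 7 of 23 blood and vessel genes and 3 of 8 hatching gland genes. They also included 6 of 20 retinoic acid, 6 of 26 Wnt, 6 of 31 neural crest and 6 of 24 muscle genes.

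**Figure D2:**
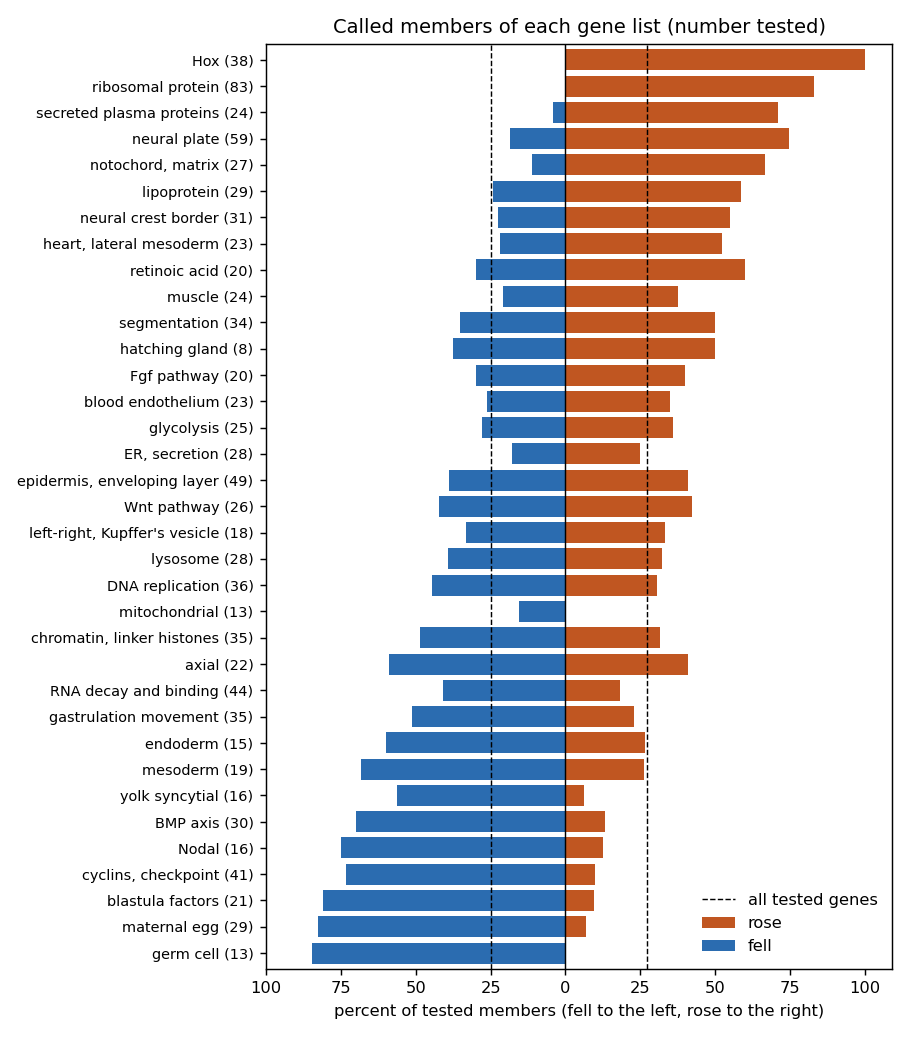
Percent of the tested members of each gene list that rose (orange, to the right) or fell (blue, to the left) from 6 to 10 hpf, with the number tested in brackets and dashed lines at the percentages of all tested genes (27.3 and 24.8). Egg, blastula and germ cell lists lie at the bottom, with most members lower at 10 hpf, and Hox, ribosomal protein and neural plate lists at the top; 35 of the 38 Hox genes passed the filter only through 10 hpf.

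Transcripts of the egg and of the pluripotent blastula fell. Of 29 tested genes known from the egg, 24 fell and 2 rose (median log2 change -1.52, 30 listed), and of 21 factors of the blastula 17 fell and 2 rose (median -1.81). Of these, 6 egg genes and 3 blastula factors passed the filter only through 6 hpf. The deepest fall among the blastula factors was that of pou5f3, the Oct4-related factor that, with Nanog and SoxB1 proteins, opens zygotic transcription. It stood at 1680.3, 1213, 1669.7 and 1609 CPM in the 4 libraries of 6 hpf and at 40.1, 38.4, 35.5 and 47.7 CPM in those of 10 hpf (log2 change -5.25 ± 0.16, adjusted p = 1.25e-08). The ages did not overlap, and replicate 2 was the lowest of the 6 hpf libraries. Its partner nanog went from 36 ± 12.3 to 4.24 ± 0.671 CPM (mean ± SD, n = 4 per age, as below; log2 change -3.08 ± 0.26, adjusted p = 3.77e-06). The Krüppel-like factor klf17, counted in the hatching gland list and in the blood and vessel list, fell from 144 ± 11.5 to 62 ± 4.69 CPM (log2 change -1.21 ± 0.11, adjusted p = 5.23e-06). Sox3, a SoxB1 gene used later in the neural plate, fell from 278 ± 33.2 to 161 ± 12.8 CPM (log2 change -0.79 ± 0.12, adjusted p = 0.000187). That call was lost when all 32 libraries shared 1 fit (adjusted p = 0.258).

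Other genes of the egg and of the blastula fell to different depths. The oogenesis-related gene org fell from 15.4 ± 2.45 to 1.31 ± 0.579 CPM (log2 change -3.55 ± 0.36, adjusted p = 1.37e-05). The RNA polymerase III subunit gene polr3gla, of the blastula list, stood at 449, 545, 530.2 and 496 CPM at 6 hpf and at 41.8, 40.6, 41.9 and 37.4 CPM at 10 hpf (log2 change -3.64 ± 0.11, adjusted p = 1.25e-08), with no overlap. Zar1 and its relative zar1l, which encode RNA-binding proteins of the egg that restrain translation, both fell (log2 changes -1.51 ± 0.27 and -2.56 ± 0.42).

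Pairs of related genes, 1 mainly maternal and 1 used by the embryo, did not all diverge. The egg form of cyclin A, ccna1, stood at 17.6, 12, 12.9 and 14.4 CPM at 6 hpf and 0.0497, 0.972, 0.392 and 0.567 CPM at 10 hpf (log2 change -4.83 ± 0.56, adjusted p = 3.61e-05). The somatic form ccna2 went from 454 ± 55.7 to 170.3 ± 32.1 CPM (log2 change -1.41 ± 0.15, adjusted p = 1.95e-05). Both forms fell. Likewise wee2, the oocyte kinase that holds Cdk1 inactive, had a log2 change of -4.29 ± 0.45, and its somatic relative wee1 one of -0.79 ± 0.10. The maternal linker histone gene h1m fell from 35.4 ± 7.74 to 2.33 ± 0.437 CPM (log2 change -3.92 ± 0.22, adjusted p = 2.19e-07). The somatic linker histone gene h1f0 rose from 31.5 ± 7.92 to 136 ± 12.5 CPM (log2 change 2.11 ± 0.17, adjusted p = 3.07e-06), so these 2 genes moved in opposite directions. H1f0 was not among the pairs set beforehand. It was named by the size of its change in the chromatin list, so its pairing with h1m was chosen after the values were seen. The histone stem-loop binding protein genes slbp2 and slbp, needed to process histone mRNA, had log2 changes of -1.95 ± 0.63 and -1.49 ± 0.14. Slbp2 was near the filter level and lost its call when 6 hpf replicate 1 was left out (adjusted p = 0.0601). Maternal sox19b rose slightly, from 61 ± 2.68 to 83.4 ± 5.39 CPM (log2 change 0.45 ± 0.10, adjusted p = 0.00296). Zygotic sox19a fell, from 607 ± 35.9 to 396 ± 20.6 CPM (log2 change -0.61 ± 0.09, adjusted p = 0.00026). Neither was called when all 32 libraries shared 1 fit (adjusted p = 0.594 and 0.404).

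Germ cell transcripts followed the maternal ones: 11 of 13 tested genes fell, with a median log2 change of -1.48. The summed level of the list ran from 327 to 436 CPM over the 6 hpf libraries and from 69 to 79.4 CPM over the 10 hpf libraries. Among its most abundant members is cxcr4b, also counted below with gastrulation movements, so the sum is not a level of germ cells alone. The germ plasm helicase gene ddx4 (vasa) stood at 161, 128, 161 and 136 CPM at 6 hpf and 11.3, 10.3, 13.6 and 11.5 CPM at 10 hpf (log2 change -3.65 ± 0.14, adjusted p = 4.25e-08). Ddx4 was also present in the yolk libraries, at 457 ± 58.9 CPM at 6 hpf and 21.4 ± 6.66 CPM at 10 hpf. Piwil1, which binds the small RNAs that silence transposons in germ cells, fell from 21.3 ± 6.35 to 1.96 ± 0.387 CPM (log2 change -3.43 ± 0.26, adjusted p = 1.6e-06).

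**Figure D3:**
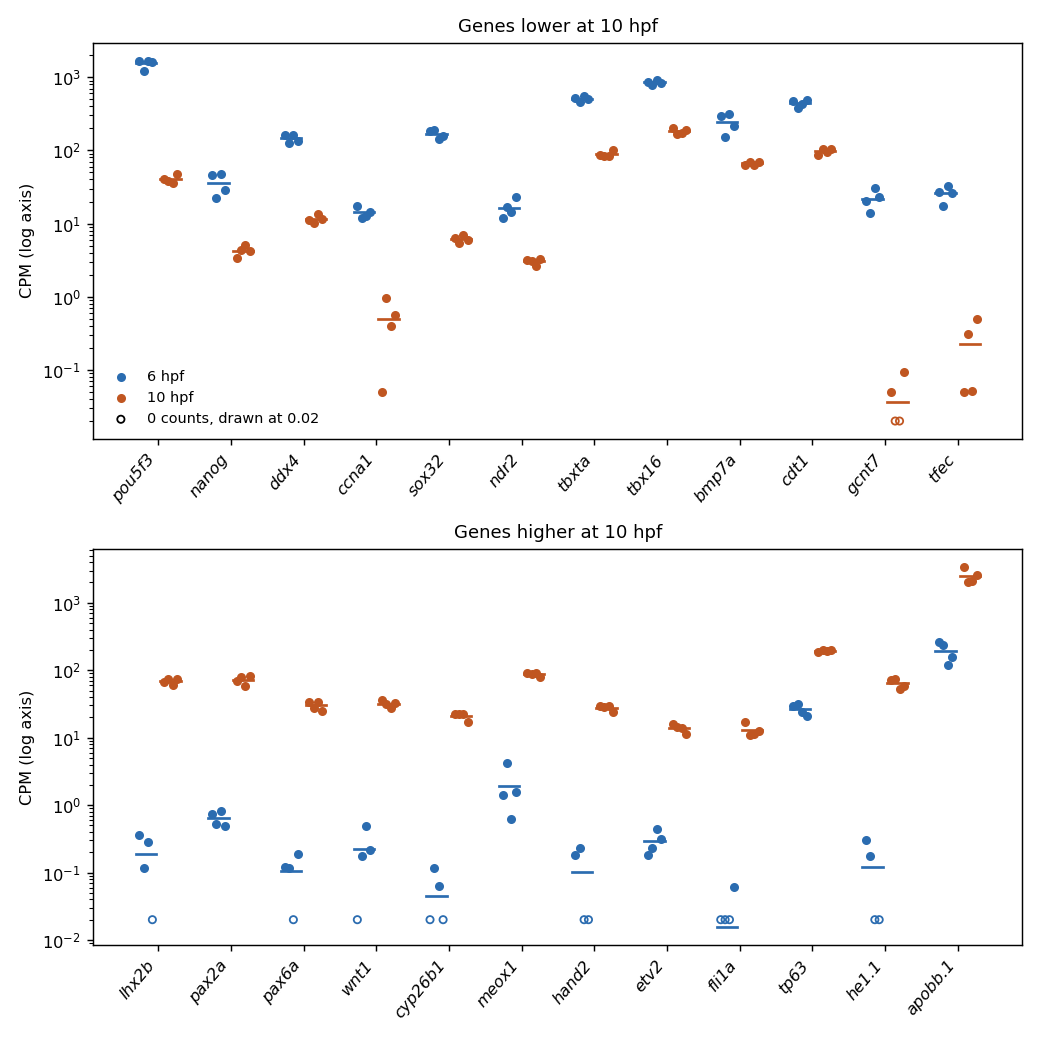
CPM in each library (log axis) for 12 genes that fell and 12 that rose, with 6 hpf in blue, 10 hpf in orange, a bar at each mean and open circles at 0.02 for libraries with 0 counts. In none of the 24 genes do the ages overlap, but some of them were named by a rule that required this.

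Most genes of the Nodal pathway fell. Of 16 tested members 12 fell and 2 rose, with a median log2 change of -1.41. Among the ligands, ndr2 (cyclops) stood at 11.8, 16.6, 14.5 and 23 CPM at 6 hpf and 3.16, 3.07, 2.64 and 3.28 CPM at 10 hpf (log2 change -2.44 ± 0.23, adjusted p = 8.98e-06). The other ligand, ndr1 (squint), was already at 1.06, 1.1, 1.59 and 0.589 CPM at 6 hpf, with 0.298, 0, 0 and 0 CPM at 10 hpf (log2 change -3.80 ± 1.13, adjusted p = 0.0149). The ages did not overlap for either ligand. The call for ndr1 was lost when 6 hpf replicates 1 and 2 were both left out (adjusted p = 0.0505). Its log2 change was -8.29 without replicate 1 of 10 hpf, since the other 10 hpf libraries held 0 counts, so its size is poorly set. The co-receptor gene tdgf1 (one-eyed pinhead) fell from 157 ± 34.8 to 18.4 ± 3.69 CPM (log2 change -3.10 ± 0.20, adjusted p = 5.74e-07). Foxh1, the DNA-binding partner of the Smad proteins that relay the signal, fell from 315 ± 51.2 to 36.2 ± 1.91 CPM (log2 change -3.12 ± 0.13, adjusted p = 6.47e-08). The feedback inhibitor lft2 fell from 22.4 ± 8.05 to 6.23 ± 0.671 CPM (log2 change -1.85 ± 0.25, adjusted p = 0.000106). The Nodal target mixl1 fell from 19.2 ± 7.13 to 4.05 ± 0.575 CPM (log2 change -2.25 ± 0.26, adjusted p = 3.6e-05). Dand5, which encodes a secreted Nodal antagonist of Kupffer's vesicle, rose from 0.0445 ± 0.0559 to 4.07 ± 1.7 CPM (log2 change 6.39 ± 0.75, adjusted p = 3.74e-05).

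Endoderm genes split. Of 15 tested members 9 fell and 4 rose. The endoderm determinant sox32, which is active in endoderm precursors and in the yolk syncytial layer, stood at 184, 190.4, 141 and 156 CPM at 6 hpf and 6.42, 5.47, 7.0 and 5.95 CPM at 10 hpf (log2 change -4.76 ± 0.15, adjusted p = 1.26e-08). Every 10 hpf library lay far below every 6 hpf library. Its target sox17 fell from 32.9 ± 7.6 to 11.3 ± 0.708 CPM (log2 change -1.54 ± 0.18, adjusted p = 3.37e-05), and gata6 (from 336 ± 65.6 to 114 ± 8.26 CPM) and foxa3 (from 192 ± 36.2 to 51.5 ± 5.98 CPM) fell as well. In contrast, foxa1 rose from under 1 CPM (log2 change 3.86 ± 0.37, adjusted p = 9.8e-06). Hnf1bb, a factor of gut and hindbrain counted in the heart and lateral plate list, also rose from under 1 CPM (log2 change 5.99 ± 0.57, adjusted p = 8.17e-06).

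Of 19 tested mesoderm genes 13 fell and 5 rose, with a median log2 change of -1.09. The T-box gene tbxta (no tail), which marks the margin and then the notochord and tail bud, stood at 522, 463, 553 and 498 CPM at 6 hpf and 86, 83.5, 84.8 and 100.2 CPM at 10 hpf (log2 change -2.52 ± 0.11, adjusted p = 6.75e-08). The T-box gene tbx16 (spadetail), needed for mesoderm cells to leave the margin, stood at 846, 793, 929 and 836 CPM at 6 hpf and 199, 169.6, 175 and 189 CPM at 10 hpf (log2 change -2.22 ± 0.10, adjusted p = 1.02e-07). Neither gene's ages overlapped. Mespaa, a bHLH gene of involuting mesoderm, fell from 19.7 ± 1.2 to 2.09 ± 0.452 CPM (log2 change -3.24 ± 0.20, adjusted p = 4.57e-07). Eomesa, a T-box gene loaded into the egg and counted in the blastula list, fell from 5.62 ± 1.69 to 0.239 ± 0.117 CPM (log2 change -4.54 ± 0.43, adjusted p = 8.95e-06). The presomitic T-box gene tbx6 moved the other way, from 22.4, 36.7, 15.6 and 25.8 CPM at 6 hpf to 279.9, 228, 183 and 215 CPM at 10 hpf (log2 change 3.17 ± 0.25, adjusted p = 2.12e-06).

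Among 22 axial genes 13 fell and 9 rose. The organizer homeobox gene gsc fell from 29.5 ± 5.18 to 11.4 ± 2.22 CPM (log2 change -1.38 ± 0.19, adjusted p = 0.000125). Chrd, which encodes the BMP antagonist Chordin of the shield, fell from 326 ± 57.1 to 159 ± 24.7 CPM (log2 change -1.03 ± 0.15, adjusted p = 0.000178). Admp, a BMP-like ligand made in the organizer, fell from 62.7 ± 15.9 to 9.74 ± 1.95 CPM (log2 change -2.69 ± 0.21, adjusted p = 2.44e-06). Shhb, a Hedgehog ligand of the midline, rose from 3.26 ± 2.97 to 21.8 ± 2.16 CPM (log2 change 2.73 ± 0.50, adjusted p = 0.00112). When all 32 libraries shared 1 fit, 4 of the axial genes were called higher and 10 lower.

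The BMP pathway fell in ligands and in ventral targets. Of 30 tested members 21 fell and 4 rose, with a median log2 change of -0.78. The ligand bmp2b stood at 102, 99.9, 97.3 and 107 CPM at 6 hpf and 34.6, 36, 38.9 and 34.8 CPM at 10 hpf (log2 change -1.49 ± 0.10, adjusted p = 7.54e-07), so the ages were apart with little spread within either. Its partner bmp7a fell from 244 ± 73.5 to 66.7 ± 3.78 CPM (log2 change -1.87 ± 0.20, adjusted p = 1.85e-05). Bmp4 fell from 60.1 ± 8.03 to 23.9 ± 2.96 CPM (log2 change -1.33 ± 0.14, adjusted p = 1.85e-05). The ventral homeobox repressor gene ved fell from 116 ± 15.3 to 32.5 ± 7.31 CPM (log2 change -1.84 ± 0.18, adjusted p = 9.1e-06). One ligand moved against them: gdf6a, used in the dorsal eye and neural border, rose from 0.204 ± 0.332 to 12.2 ± 2.14 CPM (log2 change 5.84 ± 0.87, adjusted p = 0.000353). Fsta, a follistatin that binds Activin and BMP ligands, rose from 4.4 ± 3.92 to 119 ± 6.75 CPM (log2 change 4.75 ± 0.57, adjusted p = 0.000129).

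Wnt and Fgf genes moved both ways. In the Wnt list 11 of 26 tested members rose and 11 fell, and in the Fgf list 8 of 20 rose and 6 fell. The Wnt target sp5l fell from 653 ± 78.8 to 130.2 ± 9.99 CPM (log2 change -2.33 ± 0.12, adjusted p = 1.49e-07). Wnt1, a ligand of the midbrain-hindbrain boundary, stood at 0, 0.174, 0.497 and 0.217 CPM at 6 hpf and 36.3, 31.9, 27.7 and 32.5 CPM at 10 hpf (log2 change 7.16 ± 0.52, adjusted p = 1.47e-06), and it rose. Wnt10b rose from 0.209 ± 0.134 to 8.58 ± 1.24 CPM (log2 change 5.32 ± 0.40, adjusted p = 1.64e-06). Among Fgf ligands, fgf24 fell from 28.2 ± 2.53 to 5.39 ± 0.203 CPM (log2 change -2.39 ± 0.14, adjusted p = 3.77e-07). The ligand fgf3 rose from 7.27 ± 2.68 to 20.4 ± 0.787 CPM (log2 change 1.49 ± 0.25, adjusted p = 0.000435). The receptor gene fgfr3 rose from 2.49 ± 1.13 to 42.9 ± 11.3 CPM (log2 change 4.11 ± 0.33, adjusted p = 2.52e-06). The feedback phosphatase gene dusp6 fell slightly, from 313 ± 35.9 to 232 ± 10.7 CPM (log2 change -0.43 ± 0.11, adjusted p = 0.00542), a call lost with scaling by library totals (adjusted p = 0.252).

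Genes of gastrulation movements fell more often than they rose, 18 against 8 of 35 tested. Wnt11f2 (silberblick), a non-canonical Wnt ligand that drives convergence and extension, fell from 138 ± 27.6 to 32.7 ± 3.18 CPM (log2 change -2.08 ± 0.15, adjusted p = 1.4e-06). Vangl2 (trilobite), a planar polarity protein of the same process, fell from 946 ± 140.5 to 435 ± 47.1 CPM (log2 change -1.12 ± 0.13, adjusted p = 4.2e-05). Snai1a, which lowers cell adhesion in migrating mesendoderm, fell from 365 ± 43.5 to 99.1 ± 9.08 CPM (log2 change -1.88 ± 0.12, adjusted p = 5.88e-07). The chemokine receptor gene cxcr4b fell from 107 ± 34.1 to 15.8 ± 1.89 CPM (log2 change -2.76 ± 0.24, adjusted p = 4e-06). The growth factor receptor gene pdgfra rose from 5.54 ± 1.53 to 36.4 ± 3.63 CPM (log2 change 2.71 ± 0.20, adjusted p = 1.41e-06). Fn1b, a fibronectin of the paraxial mesoderm counted in the notochord and matrix list, rose from 43.1 ± 11.3 to 435 ± 107 CPM (log2 change 3.34 ± 0.24, adjusted p = 1.25e-06).

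The Hox genes, which assign identity along the head-to-tail axis, were low or absent at 6 hpf. The table lists 49 Hox genes, of which 38 were tested and 11 were too low at both ages. All 38 tested genes rose, but 35 of them passed the filter only through 10 hpf, which favours a call of higher at that age. The log2 changes of the 38 had a median of 5.94, or 5.70 with genes at 0 counts set to their bound. Paralogue groups 1 to 11 and 13 held tested members, and in group 12 none of 3 genes passed. In group 13, 1 of 6 genes passed, at 1.47 CPM at 10 hpf. The summed level of the tested genes was 34.1, 92.7, 8.14 and 22.6 CPM in replicates 1 to 4 of 6 hpf, and 839.3 to 1042 CPM at 10 hpf. Replicate 2 was the highest of the 6 hpf libraries and replicate 3 the lowest.

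Hoxb1b, which patterns the hindbrain and is the first Hox gene to come on in the gastrula, was the Hox gene with an appreciable level at 6 hpf. It stood at 18.5, 61.6, 4.97 and 16.3 CPM at 6 hpf and 189, 149, 179 and 159 CPM at 10 hpf (log2 change 2.74 ± 0.65, adjusted p = 0.00741). The ages did not overlap, though replicate 2 of 6 hpf was well above the other replicates. Without replicates 1 and 2 the log2 change was 3.99. Hoxb9a stood at 0.546, 3.71, 0.187 and 0.558 CPM at 6 hpf and 101, 78.1, 94.5 and 77.8 CPM at 10 hpf (log2 change 6.11 ± 0.76, adjusted p = 0.000203). Hoxc8a rose from 2.88 ± 2.97 to 72.9 ± 9.52 CPM (log2 change 4.66 ± 0.71, adjusted p = 0.000615). Hoxb10a, of a posterior group, was at 0, 0.29, 0 and 0.124 CPM at 6 hpf and at 73.9, 66.9, 75.6 and 60.7 CPM at 10 hpf. Hoxa3a had 0 counts in all 6 hpf libraries and 14.5, 13.3, 9.88 and 12.8 CPM at 10 hpf, at least 556-fold higher when 3 counts over the 6 hpf libraries together are taken as the floor. Hoxd4a had 2 counts over the 6 hpf libraries and 1978 over the 10 hpf libraries, a ratio of levels of 816 (95% counting interval 226 to 6741), which covers counting error only.

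Retinoic acid, made from vitamin A in the trunk mesoderm and broken down in the head and tail, is a known regulator of Hox genes. Of 20 tested genes of its synthesis, breakdown, transport and receptors, 12 rose and 6 fell. The breakdown enzyme genes cyp26b1 and cyp26c1 were nearly absent at 6 hpf. Cyp26b1 stood at 0, 0.116, 0.0622 and 0 CPM at 6 hpf and 22.3, 22.6, 22.5 and 17.3 CPM at 10 hpf (log2 change 8.76 ± 0.50, adjusted p = 2.63e-07). Cyp26c1 rose from 0.534 ± 0.346 to 61.1 ± 8.84 CPM (log2 change 6.82 ± 0.37, adjusted p = 2.02e-07). The reductase gene dhrs3a, which limits retinoic acid formation, rose from 0.16 ± 0.281 to 16.7 ± 5.08 CPM (log2 change 6.64 ± 0.87, adjusted p = 0.000151). Rdh10b, which acts in its synthesis, fell from 272 ± 31.7 to 64.1 ± 4.59 CPM (log2 change -2.09 ± 0.12, adjusted p = 2.31e-07). The 2 cellular binding proteins changed in opposite directions. Crabp2a stood at 0.0607, 1.91, 0.249 and 0.124 CPM at 6 hpf and 98.1, 84.7, 112 and 75.6 CPM at 10 hpf (log2 change 7.27 ± 0.79, adjusted p = 8.21e-05), with 6 hpf replicate 2 again the highest of its age. Crabp2b fell from 1090.0 ± 149 to 321 ± 68.9 CPM (log2 change -1.76 ± 0.16, adjusted p = 6.3e-06). The receptor gene rarga rose from 14.3 ± 3.4 to 164 ± 5.06 CPM (log2 change 3.52 ± 0.17, adjusted p = 1.37e-07).

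**Figure D4:**
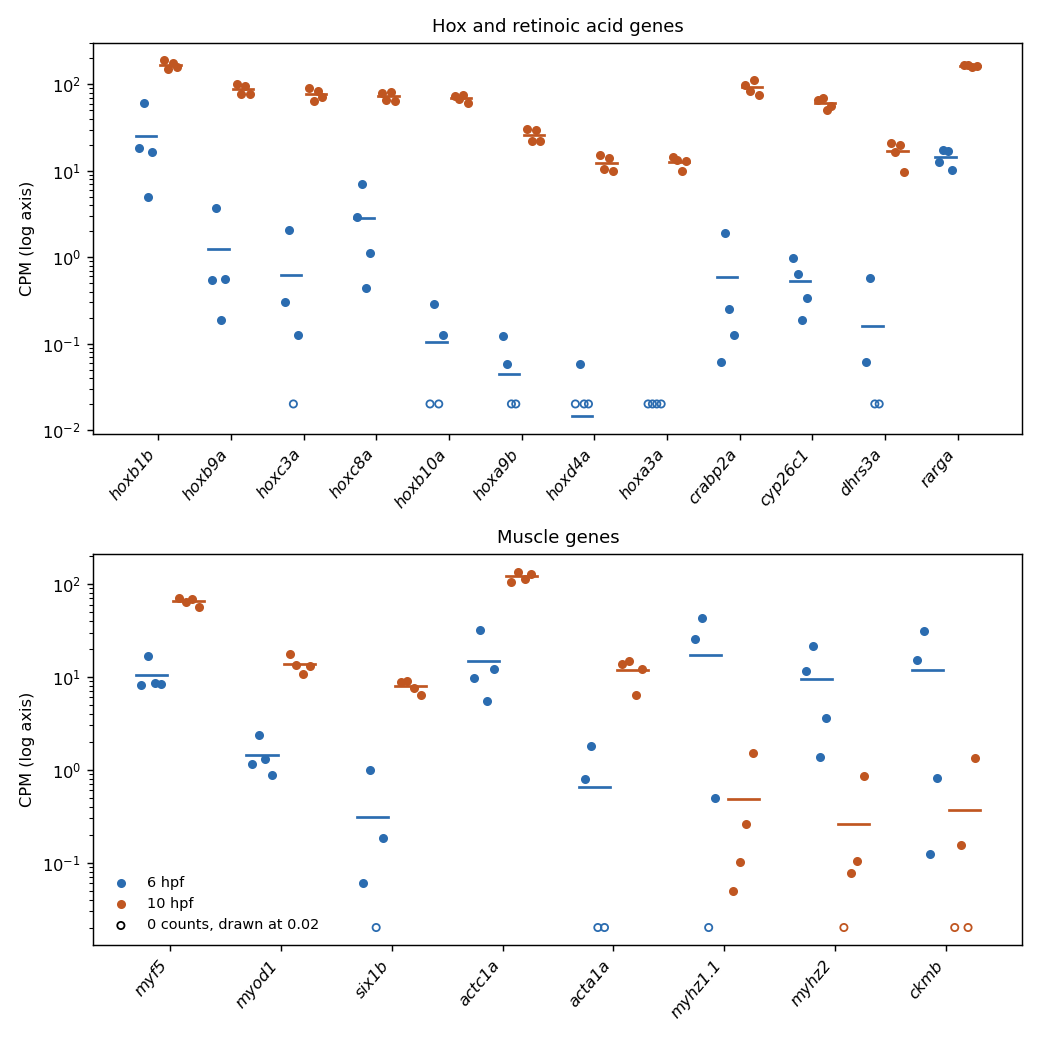
CPM in each library (log axis) for Hox and retinoic acid genes (top) and muscle genes (bottom), with 6 hpf in blue, 10 hpf in orange, a bar at each mean and open circles at 0.02 for 0 counts. In the top panel the ages do not overlap, which the rule that named some of these genes required. There 6 hpf replicate 2 is often the highest blue point. In the bottom panel myhz1.1 and ckmb overlap between ages and are high in 6 hpf replicates 1 and 2.

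Most neural plate genes rose. Of 59 tested members 44 rose and 11 fell, with a median log2 change of 2.87, and 21 of them passed the filter only through 10 hpf. The summed level of the list overlapped between ages, at 2983 to 3436 CPM at 6 hpf and 3061 to 3317 CPM at 10 hpf. Its abundant members sox19a and sox3, described above, fell. The forebrain and eye field gene lhx2b stood at 0.364, 0.116, 0.28 and 0 CPM at 6 hpf and 67.5, 73.3, 61.3 and 74.1 CPM at 10 hpf (log2 change 8.48 ± 0.43, adjusted p = 1.57e-07). Pax2a, of the midbrain-hindbrain boundary, stood at 0.728, 0.522, 0.808 and 0.496 CPM at 6 hpf and 70.2, 80.5, 58.2 and 81.8 CPM at 10 hpf (log2 change 6.82 ± 0.22, adjusted p = 1.26e-08). Both lay far apart between ages with little spread within an age. Pax6a, of eye and forebrain, rose from 0.106 ± 0.0774 to 30.2 ± 4.31 CPM (log2 change 8.11 ± 0.41, adjusted p = 1.43e-07). En2a, of the midbrain-hindbrain boundary, rose from 0.061 ± 0.0858 to 22.2 ± 2.06 CPM (log2 change 8.44 ± 0.55, adjusted p = 5.9e-07). Nkx2.4b, of the ventral forebrain, had 2 counts at 6 hpf and 2581 at 10 hpf, a ratio of levels of 1064 (95% counting interval 294 to 8794). Not all neural genes rose: zic2b fell from 786 ± 23.2 to 275 ± 12.2 CPM (log2 change -1.52 ± 0.09, adjusted p = 3.51e-07).

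Genes of the neural plate border and neural crest rose in 17 of 31 tested cases and fell in 7. The member with the largest change, tfec, fell, and its values are given below with the largest falls. The crest factors sox10 (from 0.667 ± 0.228 to 14.6 ± 4.67 CPM; log2 change 4.44 ± 0.36, adjusted p = 2.52e-06) and sox9b (from 1.33 ± 0.355 to 63.4 ± 6.94 CPM; log2 change 5.57 ± 0.21, adjusted p = 4.25e-08) rose. Pax3a, a border gene also expressed in somites, rose from 2.18 ± 1.17 to 48.2 ± 5.74 CPM (log2 change 4.46 ± 0.37, adjusted p = 4.06e-06).

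Of 34 genes of somite segmentation 17 rose and 12 fell. The paraxial mesoderm homeobox gene meox1 stood at 1.4, 4.23, 0.622 and 1.55 CPM at 6 hpf and 91.4, 89, 91.3 and 80.1 CPM at 10 hpf (log2 change 5.49 ± 0.48, adjusted p = 1.08e-05). No libraries of the 2 ages overlapped. The somite epithelium gene tcf15 rose from 1.08 ± 0.784 to 27.6 ± 2.54 CPM (log2 change 4.67 ± 0.43, adjusted p = 7.38e-06). Her13, a Hairy-related gene of the presomitic mesoderm, rose from 1.02 ± 0.429 to 13.8 ± 1.73 CPM (log2 change 3.74 ± 0.32, adjusted p = 4.13e-06).

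Muscle genes fell into 2 sets. The determination factors rose. Myf5 stood at 8.13, 16.9, 8.64 and 8.43 CPM at 6 hpf and 69.8, 64.5, 69.2 and 57.2 CPM at 10 hpf (log2 change 2.63 ± 0.24, adjusted p = 5.82e-06). Myod1 rose from 1.43 ± 0.659 to 13.7 ± 2.93 CPM (log2 change 3.26 ± 0.33, adjusted p = 1.22e-05). Six1b rose from 0.308 ± 0.458 to 7.93 ± 1.24 CPM (log2 change 4.65 ± 0.85, adjusted p = 0.0011). Six1b is also counted in the neural plate border and crest list, and bulk RNA does not show in which tissue it rose. The actin genes actc1a (from 15 ± 11.8 to 120.5 ± 13.7 CPM; log2 change 3.01 ± 0.48, adjusted p = 0.000728) and acta1a (log2 change 4.17 ± 1.06, adjusted p = 0.00917) rose too. Without replicates 1 and 2 of 6 hpf their log2 changes were 3.76 and 11.8, so the size for acta1a is poorly set. The contractile genes of differentiated fast muscle did not follow. Myhz1.1, a fast myosin heavy chain gene, stood at 25.9, 42.6, 0 and 0.496 CPM in replicates 1 to 4 of 6 hpf and at 0.0497, 0.102, 0.261 and 1.51 CPM at 10 hpf, and the muscle creatine kinase gene ckmb at 15.3, 31.5, 0.124 and 0.806 and 0, 0.153, 0 and 1.32 CPM. These 2 genes were high in replicates 1 and 2 of 6 hpf and near 0 in the others, and neither was called (adjusted p = 0.059 and 0.0563), although DESeq2 called both lower (adjusted p = 0.0134 and 0.0322). Without those 2 replicates the log2 change of myhz1.1 turned from -5.13 to 0.95 (adjusted p = 0.654). Over the whole list of 24 tested members 9 rose and 5 fell. Without those 2 replicates 15 rose, and genes such as myhz2 were no longer called (adjusted p = 0.0537, against 0.00632 with all libraries). The summed level of the list was 231.8, 435.0, 50.1 and 74.8 CPM in replicates 1 to 4 of 6 hpf and 334.3 to 438 CPM at 10 hpf. The source of these transcripts in the 2 replicates was not tested.

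Genes of heart and lateral plate mesoderm rose in 12 of 23 tested cases and fell in 5, and 9 members passed the filter only through 10 hpf. The list also holds pax2a and hnf1bb, named here for neural or gut tissue, so its counts are not those of heart and lateral plate alone. Its abundant members gata6 and bmp4, described above, fell. The heart and fin field factor gene hand2 stood at 0.182, 0.232, 0 and 0 CPM at 6 hpf and 29.99, 28.4, 29.98 and 23.7 CPM at 10 hpf (log2 change 8.01 ± 0.56, adjusted p = 1.19e-06). The 6 hpf counts of hand2 lay only in replicates 1 and 2, so the size of its rise is poorly set. Nkx2.7, a cardiac homeobox gene, rose from 0.269 ± 0.306 to 13.9 ± 1.91 CPM (log2 change 5.66 ± 0.70, adjusted p = 7.98e-05). Wt1a, of the kidney field, rose from 0.122 ± 0.112 to 7.09 ± 0.954 CPM (log2 change 5.83 ± 0.59, adjusted p = 1.33e-05). Genes of blood and vessels rose in 8 and fell in 6 of 23 tested cases. The vessel determinant etv2 stood at 0.182, 0.232, 0.435 and 0.31 CPM at 6 hpf and 16.2, 14.4, 14.1 and 11.5 CPM at 10 hpf (log2 change 5.58 ± 0.30, adjusted p = 1.97e-07). Tal1, a factor of blood and endothelium, rose from 0.722 ± 0.339 to 7.82 ± 1.16 CPM (log2 change 3.43 ± 0.39, adjusted p = 2.91e-05). Fli1a, an ETS factor of the endothelial lineage, had 2 counts over the 6 hpf libraries and 2072 over those of 10 hpf, a ratio of levels of 855 (95% counting interval 236 to 7061). In contrast, nfe2, a factor of blood cells, fell from 5.48 ± 0.976 to 0.484 ± 0.328 CPM (log2 change -3.49 ± 0.46, adjusted p = 9.2e-05).

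The surface ectoderm list divided evenly, with 20 of 49 tested members higher and 19 lower, and 9 and 13 when all 32 libraries shared 1 fit. The basal epidermal factor gene tp63 stood at 29.4, 31.3, 24.2 and 20.8 CPM at 6 hpf and 184, 197, 191 and 202 CPM at 10 hpf (log2 change 2.87 ± 0.14, adjusted p = 1.4e-07), with no overlap. Grhl2b, a factor of epithelial barriers, rose from 5.64 ± 1.25 to 58.4 ± 6.24 CPM (log2 change 3.37 ± 0.18, adjusted p = 1.77e-07). The claudin gene cldni rose from 0.763 ± 0.653 to 36.6 ± 15.3 CPM (log2 change 5.57 ± 0.61, adjusted p = 4.77e-05). The keratin gene krt8 fell slightly, from 3901 ± 182 to 2956 ± 262 CPM (log2 change -0.40 ± 0.10, adjusted p = 0.00542), a call lost with scaling by library totals (adjusted p = 0.337). The water channel gene aqp3a fell from 16.5 ± 0.851 to 2.21 ± 0.425 CPM (log2 change -2.90 ± 0.20, adjusted p = 1.03e-06).

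In the hatching gland list 4 of 8 tested members rose and 3 fell. Gsc and klf17, both described above, were among those that fell. The genes that rose most encode enzymes of the gland. The hatching enzyme gene he1.1 stood at 0.303, 0.174, 0 and 0 CPM at 6 hpf and 71.6, 74.8, 52.8 and 57.6 CPM at 10 hpf (log2 change 9.01 ± 0.53, adjusted p = 5.74e-07). The 6 hpf counts of he1.1 lay only in replicates 1 and 2, so the size of its rise is poorly set. Its close relative he1.2 rose from 0.0369 ± 0.0439 to 16.2 ± 4.22 CPM (log2 change 8.62 ± 0.53, adjusted p = 4.46e-07). The cathepsin gene ctslb, a hatching gland marker, rose from 2.82 ± 1.79 to 60.3 ± 8.12 CPM (log2 change 4.41 ± 0.47, adjusted p = 3.99e-05). In the list of notochord and matrix genes 18 of 27 rose and 3 fell. The basement membrane collagen gene col18a1a stood at 11, 12.2, 10.4 and 15.3 CPM at 6 hpf and 288, 324, 251 and 243 CPM at 10 hpf (log2 change 4.50 ± 0.17, adjusted p = 3.68e-08). Its spread within an age was small beside the difference between ages. The cartilage and notochord collagen gene col2a1a rose from 5.77 ± 6.33 to 31.1 ± 5.79 CPM (log2 change 2.43 ± 0.65, adjusted p = 0.0118), with 6 hpf replicate 2 above the other 6 hpf libraries. It was not called when all 32 libraries shared 1 fit (adjusted p = 0.0639).

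Cell cycle genes fell. Of 41 tested cyclins and checkpoint genes 30 fell and 4 rose, with a median log2 change of -0.79. Ccnd1, the cyclin of G1 entry, stood at 1765, 1464, 1745 and 1451 CPM at 6 hpf and 574, 511, 616 and 534 CPM at 10 hpf (log2 change -1.52 ± 0.11, adjusted p = 1.41e-06). Ccne1, of the G1 to S step, fell from 166 ± 18.1 to 42.8 ± 5.52 CPM (log2 change -1.96 ± 0.13, adjusted p = 7.83e-07). Ccnb1, of mitosis, fell from 600.5 ± 48.2 to 247 ± 25 CPM (log2 change -1.28 ± 0.11, adjusted p = 4.1e-06). The inhibitor gene cdkn1a (p21) rose from 2.49 ± 0.873 to 10.2 ± 1.65 CPM (log2 change 2.03 ± 0.29, adjusted p = 0.000148). Replication genes were more mixed, with 16 of 36 lower and 11 higher. With library totals the balance turned, with 10 lower and 14 higher. The origin licensing genes cdt1 (from 444 ± 47.3 to 97.5 ± 8.75 CPM; log2 change -2.19 ± 0.12, adjusted p = 1.9e-07) and cdc6 (from 472 ± 48.8 to 143 ± 4.68 CPM; log2 change -1.72 ± 0.10, adjusted p = 3.97e-07) fell over 3-fold, while the helicase subunit gene mcm3 (log2 change -0.85 ± 0.10, adjusted p = 3.73e-05) and the sliding clamp gene pcna (log2 change -0.69 ± 0.12, adjusted p = 0.000505) fell by less than 2-fold.

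In the chromatin list 11 of 35 tested members rose and 17 fell. The DNA demethylation enzyme genes tet2 (from 0.0683 ± 0.08 to 8.99 ± 2.47 CPM; log2 change 6.97 ± 0.59, adjusted p = 3.94e-06) and tet3 (from 1.08 ± 0.634 to 25.7 ± 7.06 CPM; log2 change 4.57 ± 0.44, adjusted p = 9.88e-06) rose from about 1 CPM or less. The histone demethylase gene kdm6bb rose from 6.7 ± 4.82 to 26.7 ± 9.09 CPM (log2 change 2.00 ± 0.45, adjusted p = 0.00386). The histone H3.3 gene h3f3a fell from 2757 ± 403 to 899.5 ± 101 CPM (log2 change -1.62 ± 0.13, adjusted p = 2.68e-06).

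Cytosolic ribosomal protein genes rose as a group. Of 83 tested genes 69 rose and the others were not called, with a median log2 change of 0.66. The rises were small: 0 of the 83 were shown to be over 2-fold. In 45 of them every 10 hpf library lay above every 6 hpf library. Rpl3 had the largest change of the list. Rpl3 stood at 615, 1103, 591 and 667 CPM at 6 hpf and 1658, 1749, 2048 and 1611 CPM at 10 hpf (log2 change 1.25 ± 0.19, adjusted p = 0.000271). Rplp0 rose from 1036 ± 257 to 2026 ± 134 CPM (log2 change 0.97 ± 0.15, adjusted p = 0.000354). Replicate 2 was the highest of the 6 hpf libraries for both genes, and its summed ribosomal protein level was 37704.7 CPM against 22326.5 CPM in the lowest 6 hpf library and 40808.1 to 48459.8 CPM at 10 hpf. Of the 13 tested transcripts of the mitochondrial genome 2 fell and the others were not called; with library totals neither call remained and 1 transcript was called higher. Mt-co1, a cytochrome oxidase subunit, fell from 8122 ± 1420.0 to 5668 ± 491 CPM (log2 change -0.52 ± 0.13, adjusted p = 0.00706), which was not called with library totals (adjusted p = 0.149).

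The whole-embryo libraries include the yolk cell, and genes of lipoprotein assembly and of secreted plasma proteins, typical of the yolk syncytial layer and later of the liver, changed strongly. Of 29 tested lipoprotein genes 17 rose and 7 fell (median log2 change 0.99). Apobb.1, which encodes the structural apolipoprotein B of yolk lipoproteins, stood at 261, 235, 119 and 157 CPM at 6 hpf and 3415, 2068, 2094 and 2552 CPM at 10 hpf (log2 change 3.72 ± 0.27, adjusted p = 1.87e-06). Its counts may include reads of closely related apolipoprotein B genes. Apoba rose from 10.7 ± 3.0 to 182 ± 62.2 CPM (log2 change 4.09 ± 0.29, adjusted p = 1.3e-06). Apoa4b.1 rose from 4.78 ± 3.23 to 119.7 ± 16.9 CPM (log2 change 4.64 ± 0.52, adjusted p = 8.21e-05). Apoa1b rose from 341 ± 109 to 1046 ± 137 CPM (log2 change 1.62 ± 0.23, adjusted p = 0.000173). Dgat2, which makes triglyceride, rose from 18.6 ± 7.31 to 142 ± 32.6 CPM (log2 change 2.94 ± 0.33, adjusted p = 4.16e-05).

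Against these, mttp, whose product loads lipid onto apolipoprotein B, stood at 1023, 706, 734 and 887 CPM at 6 hpf and 255, 167, 265 and 232 CPM at 10 hpf (log2 change -1.87 ± 0.17, adjusted p = 6.4e-06). Hnf4a, a nuclear receptor that controls lipoprotein genes, stood at 199.5, 113, 160.3 and 158 CPM and 36, 23.5, 30.1 and 27.8 CPM (log2 change -2.43 ± 0.19, adjusted p = 2.03e-06). Both fell with no overlap between ages while apobb.1 rose. Apoeb, an apolipoprotein E gene of the yolk syncytial layer, fell slightly, from 4979 ± 654 to 3928 ± 291 CPM (log2 change -0.34 ± 0.11, adjusted p = 0.0261), a call lost under several other settings, with adjusted p up to 0.683 with library totals. In the yolk syncytial layer list 9 of 16 tested members fell and 1 rose, and its homeobox gene mxtx1 fell from 36.6 ± 5.56 to 10.5 ± 3.13 CPM (log2 change -1.81 ± 0.22, adjusted p = 5.61e-05). In yolk libraries of the same ages 7 of the 16 members rose and 7 fell. The change was lower in whole embryo than in yolk for 5 members and greater for 1. The list therefore did not fall as a group in yolk.

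Of 24 tested plasma protein genes 17 rose and 1 fell, and 12 passed the filter only through 10 hpf. Transferrin (tfa), the iron carrier, stood at 323, 364, 131 and 277 CPM at 6 hpf and 1216, 1072, 1113 and 1046 CPM at 10 hpf (log2 change 2.02 ± 0.26, adjusted p = 8.4e-05). The fetuin gene fetub rose from 794 ± 181 to 1702 ± 172 CPM (log2 change 1.1 ± 0.16, adjusted p = 0.000201). The protease inhibitor gene serpina1 rose from 3.29 ± 2.24 to 109.5 ± 25.6 CPM (log2 change 5.05 ± 0.48, adjusted p = 2.16e-05). The complement gene cfb rose from 0.195 ± 0.151 to 12 ± 1.99 CPM (log2 change 5.91 ± 0.55, adjusted p = 7.53e-06). Lysosomal genes were mixed, with 9 of 28 higher and 11 lower, or 10 higher and 5 lower with library totals. The cathepsin gene ctsla fell from 2467 ± 417 to 902 ± 142 CPM (log2 change -1.45 ± 0.16, adjusted p = 2e-05).

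The change from 6 to 10 hpf was set against the change in 8 yolk libraries of the same ages, with the difference of the changes tested in 22694 genes. It was greater in whole embryo than in yolk for 2780 genes (12.2%) and lower for 3328 (14.7%); scaling by library totals gave 4989 and 1737 and moved the median difference of all genes from -0.10 to 0.41 on the log2 scale. In yolk alone 6546 genes rose (28.8%) and 5210 fell (23.0%). Genes that rose in both numbered 3353, which is 59.5% of those that rose in whole embryo and 51.2% of those that rose in yolk. Genes that fell in both numbered 2843, or 55.5% and 54.6%. Another 429 genes rose in whole embryo and fell in yolk, and 535 did the reverse. Whole-embryo libraries contain the yolk, so the 2 tissues are not independent parts of the embryo.

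**Figure D5:**
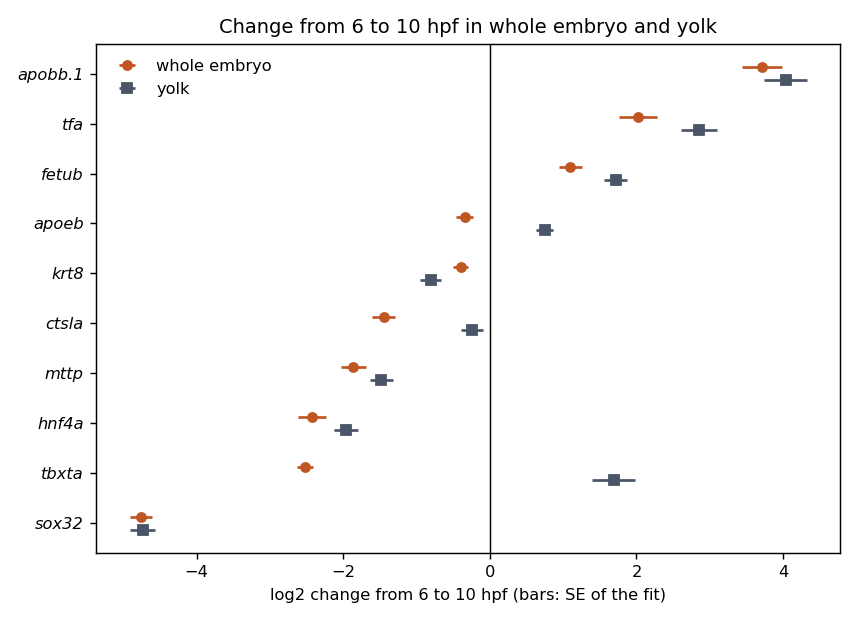
Log2 change from 6 to 10 hpf (bars: SE) in whole embryo (orange circles, fit of 8 libraries) and yolk (grey squares, fit of 16 libraries) for 10 genes. The points of sox32 lie together, whereas tbxta fell in whole embryo and rose in yolk.

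Sox32 fell in both: yolk levels were 1184, 1066, 1033 and 993 CPM at 6 hpf and 49.7, 28.6, 38.7 and 43.3 CPM at 10 hpf, a log2 change of -4.74 ± 0.17, and the difference of the changes was -0.00 ± 0.13, adjusted p = 0.998. Apobb.1 rose in both, in yolk by 4.03 ± 0.29 on the log2 scale (difference -0.30 ± 0.36, adjusted p = 0.589). Mttp fell in both, in yolk with a log2 change of -1.48 ± 0.15 (difference -0.37 ± 0.21, adjusted p = 0.217). These 2 differences were not called, which does not show that the changes were equal. For hnf4a the difference was -0.45 ± 0.23, adjusted p = 0.168, and for tfa -0.81 ± 0.33, adjusted p = 0.0784; with the replicate number as a block both were called (adjusted p = 0.047 and 0.0307).

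Other genes differed. Tbxta fell in whole embryo but in yolk went from 22, 38.7, 10.3 and 12.2 CPM at 6 hpf to 78, 55.7, 62.1 and 72.7 CPM at 10 hpf, a log2 change of 1.69 ± 0.30 (difference -4.19 ± 0.42, adjusted p = 1.86e-06). Tbxta marks the embryo proper, and whether embryo tissue remained on the yolk in these libraries was not tested. In yolk 31 of 38 Hox genes and 26 of 59 neural plate genes also rose, while 0 and 2 fell. So did 20 of 34 segmentation genes and 10 of 19 mesoderm genes, with 3 and 5 lower. The surface ectoderm list went the other way in yolk, with 4 of 49 higher and 30 lower. Of all genes 28.8% rose and 23.0% fell there. Replicate 2 of 6 hpf yolk, the highest for tbxta, was also the highest for ccnd1 (45.3, 112, 24.1 and 22.8 CPM in replicates 1 to 4). Apoeb rose in yolk from 18526, 14194, 16492 and 18409 CPM to 29814, 27456, 28734 and 27607 CPM (difference -1.07 ± 0.16, adjusted p = 8.01e-05). Ctsla was not called in yolk (log2 change -0.24 ± 0.15) and fell in whole embryo (difference -1.19 ± 0.21, adjusted p = 0.000396). Among lysosomal genes 16 of 28 had a lower change in whole embryo than in yolk and 1 a greater one, against 14.7% and 12.2% of all genes. For fetub the difference was -0.60 ± 0.22, adjusted p = 0.0485, a call lost with library totals (adjusted p = 0.781) and when most of the single libraries were left out. The keratin gene krt8, of the enveloping layer, had a difference of 0.42 ± 0.20, adjusted p = 0.126. It was called with library totals (0.93, adjusted p = 0.00071) and without replicate 2 of the 6 hpf yolk libraries (0.55, adjusted p = 0.0257).

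The largest changes of all, taken among called genes with non-overlapping ages and at least 10 CPM at 1 age, included genes outside the themes above. Among the 15 largest rises, 5 were Hox genes and the others included zbtb16b, a zinc finger repressor, at 0, 0.464, 0 and 0.124 CPM at 6 hpf and 123, 107, 90.2 and 83.5 CPM at 10 hpf (log2 change 9.35 ± 0.60, adjusted p = 1.46e-06). Lsp1, an actin-binding protein gene, rose from 0.283 ± 0.203 to 94 ± 3.09 CPM (log2 change 8.34 ± 0.32, adjusted p = 4.25e-08). Cpa6, a carboxypeptidase gene, rose from 0.0297 ± 0.0343 to 15.9 ± 3.18 CPM (log2 change 8.89 ± 0.49, adjusted p = 2.21e-07).

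The largest fall was that of gcnt7, of a glycosyltransferase family, which stood at 20.3, 14.1, 30.7 and 22.8 CPM at 6 hpf and 0.0497, 0, 0 and 0.0945 CPM at 10 hpf (log2 change -9.07 ± 0.56, adjusted p = 4.15e-07). Next came tfec, a transcription factor gene of the MiT family, from 27.3, 17.5, 32.3 and 26.3 CPM at 6 hpf to 0.0497, 0.307, 0.0523 and 0.496 CPM at 10 hpf (log2 change -6.80 ± 0.55, adjusted p = 3.55e-06). Both were close to the limit of detection at 10 hpf. The purine nucleoside phosphorylase gene pnp4a fell from 139 ± 13.4 to 1.88 ± 0.547 CPM (log2 change -6.21 ± 0.21, adjusted p = 2.01e-08). The adducin gene add3b fell from 813 ± 194 to 14.1 ± 0.983 CPM (log2 change -5.85 ± 0.19, adjusted p = 1.39e-08). The potassium channel gene kcna2a fell from 15.2 ± 4.23 to 0.219 ± 0.21 CPM (log2 change -6.07 ± 0.55, adjusted p = 6.12e-06). Skilb, a SKI-related repressor of TGF-beta signalling, fell from 99.2 ± 8.76 to 1.84 ± 0.58 CPM (log2 change -5.74 ± 0.23, adjusted p = 5e-08). Elf3, an ETS factor of epithelia, fell from 23.6 ± 8.09 to 0.563 ± 0.276 CPM (log2 change -5.37 ± 0.43, adjusted p = 2.52e-06). The sugar transporter gene slc2a12 fell from 243 ± 23.8 to 6.04 ± 1.7 CPM (log2 change -5.33 ± 0.22, adjusted p = 5.76e-08).

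By difference in mean CPM the largest shifts were in abundant transcripts, which such a ranking favours. CPM is a relative measure, so these are not changes in absolute amount. The RNA-binding protein gene khdrbs1a stood at 6568, 8994, 7203 and 8232 CPM at 6 hpf and 3624, 3499, 3798 and 3624 CPM at 10 hpf (log2 change -1.09 ± 0.11, adjusted p = 1.64e-05). Another, hnrnpa0l, fell from 5813 ± 911 to 2005 ± 209 CPM (log2 change -1.54 ± 0.13, adjusted p = 4.26e-06). The connexin gene cx43.4 fell from 4451 ± 281 to 1868 ± 32.8 CPM (log2 change -1.25 ± 0.09, adjusted p = 1.34e-06). Marcksl1b, which links membrane and actin, fell from 2739 ± 234 to 477 ± 37.7 CPM (log2 change -2.52 ± 0.11, adjusted p = 6.72e-08). The translation elongation factor gene eef1a1l1 fell from 18994 ± 2064 to 15172 ± 804 CPM (log2 change -0.32 ± 0.10, adjusted p = 0.0214), though its call was lost with library totals (adjusted p = 0.759). The largest shift upward was that of apobb.1, already described. The orphan nuclear receptor gene nr6a1a rose from 1180.2 ± 54.2 to 1941 ± 346 CPM (log2 change 0.72 ± 0.13, adjusted p = 0.000944).

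Levels at the later ages, from a scaling over all 16 whole-embryo libraries, are given for a few genes without a test (means ± SD at 6, 10, 26 and 48 hpf). Pou5f3 was at 1666 ± 232, 44.1 ± 5.46, 1.95 ± 0.795 and 1.38 ± 0.26 CPM, lower at each later age. Hoxb1b was at 27.5 ± 27.2, 185 ± 18.8, 49.6 ± 5.54 and 28.9 ± 1.69 CPM, highest at 10 hpf, and meox1 at 2.11 ± 1.72, 96 ± 6.04, 21.2 ± 2.33 and 14.1 ± 0.508 CPM, also highest at 10 hpf. He1.1 was at 0.129 ± 0.159, 70.1 ± 11.7, 1326 ± 127 and 228 ± 133 CPM, highest at 26 hpf, as was apobb.1 at 208 ± 71.3, 2759.8 ± 657, 6412 ± 1121 and 3644 ± 768 CPM. Tfec was at 27.9 ± 6.59, 0.247 ± 0.236, 7.16 ± 1.39 and 6.8 ± 0.837 CPM, so that its lowest level was at 10 hpf. Tp63 was at 28.6 ± 5.33, 211 ± 9.34, 80.02 ± 5.89 and 67.7 ± 1.91 CPM, with its highest mean at 10 hpf.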

How the data were processed

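RNA sequencing libraries of wild type zebrafish, made from TRIzol-extracted total RNA with a NEBNext Ultra II kit per the labels' protocols, were grouped by tissue and age from their titles. The deposited table gives unnormalized counts, with genes as symbols and each library in its own column. The submitters' processing notes name featureCounts 2.0.6, STAR 2.7.10b, Trim Galore 0.6.10, FastQC 0.12.1 and the build GRCz11. Settings and strand handling are not given in those notes, so overlapping or antisense genes cannot be told apart and close paralogues (Hox, keratin, histone, hatching enzyme and apolipoprotein genes) are uncertain. Genes appear by symbol, without coordinates or sequences.

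The 8 libraries were filtered with filterByExpr (minimum count 10, minimum total 15), which kept 20635 genes; 5072 genes had 0 counts in all 8. Counts were TMM-scaled (factors 0.896 to 0.925 at 6 hpf and 1.09 to 1.11 at 10 hpf) and tested by edgeR 4.0.16 (robust quasi-likelihood F test, R 4.3.3) on the 2 groups alone, because later and yolk libraries differ in composition. The common dispersion was 0.119, with 6 residual degrees of freedom. Tests were two-sided, adjusted by Benjamini-Hochberg over all genes, with a threshold of 0.05; changes over 2-fold used glmTreat. Log2 changes are 10 minus 6 hpf, and the SE was derived from the F statistic. The difference from yolk was an interaction over 16 libraries. The fitting code was tested on simulated data.

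Gene lists (32, with Hox, ribosomal protein and mitochondrial genes added) and their members were chosen with earlier results of these data known; 27 symbols had no match and 15 matched by a RefSeq synonym. Named genes were the 15 largest log2 changes per direction among called genes with at least 10 CPM and separate ages, the 10 largest CPM shifts per direction, up to 8 members per list by change and 4 by level, and pairs of related genes; the text names a part of these, and 1 gene counted among the refitted genes is not reported here. Alternatives were DESeq2 1.42.0 and its size factors, library totals, no filter, a stricter filter, larger library sets, a replicate block, mitochondrial genes removed and each library left out. Deviations of same-numbered libraries of the 2 ages correlated at 0.11 to 0.56 over 9469 genes, but libraries of different numbers correlated at up to 0.39. No label says what a number marks. The main test therefore used no pairing, and the number entered only the alternative fit with a replicate block. No 2 replicates agreed within sampling noise (chi-square per gene at least 20.6). Intervals and floors cover counting error only, since reads are not independent molecules.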

Additional observations from a re-analysis of the deposited data

Results flagged for a closer look

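Dixon's test was applied to 338 groups of 4 libraries, 1 for each age of 169 genes. In 26 groups a library lay far from the other 3 of its age. Chance gives about 1 in 20 only for normally distributed values. A group with counts in 1 library and none in the other 3 is always flagged by this test. That held for fli1a, hoxd4a and nkx2.4b at 6 hpf and for ndr1 at the later age. The 26 flags can therefore not be judged against that rate, and those of these 4 genes rest on few counts. Of these 26, 12 were replicate 2 of 6 hpf. It was the highest of its age for crabp2a (1.91 CPM), dhrs3a (0.58 CPM), hnf1bb (0.464 CPM), hoxb9a (3.71 CPM), hoxc3a (2.09 CPM), hoxd4a (0.058 CPM), myf5 (16.9 CPM), eef1a1l1 (22100 CPM), rpl3 (1100 CPM) and ldhba (448 CPM), and the lowest for pou5f3 (1210 CPM) and mxtx1 (28.3 CPM). Replicate 3 of 6 hpf was lowest for apoa1b (179 CPM) and dgat2 (7.71 CPM). Replicate 4 of 6 hpf was highest for sec24d (42.1 CPM) and was the one library of its age with counts of fli1a and nkx2.4b (0.062 CPM each).

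At 10 hpf replicate 4 was the highest for ckmb (1.32 CPM), myhz1.1 (1.51 CPM), myhz2 (0.851 CPM) and tbxta (100 CPM) and the lowest for cyp26b1 (17.3 CPM). Replicate 1 was the highest for fsta (129 CPM) and the one with counts of ndr1 (0.298 CPM), and replicate 2 was the highest for lsp1 (98.6 CPM) and tcf15 (31.4 CPM).

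The change from 6 to 10 hpf in whole embryo minus that in yolk, tested as an interaction, was past the threshold for 4 of the 10 genes compared between tissues. It was -4.19 on the log2 scale for tbxta, -1.19 for ctsla, -1.07 for apoeb and -0.603 for fetub.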

How the results depend on the processing

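Rises and falls kept their counts within 1.5 times in whole embryo under the other scalings, filters, tests, library sets and the fit with mitochondrial genes removed. When each library was left out in turn, the genes higher at 10 hpf ran from 5031 to 5989 and the genes lower from 4558 to 5357, those higher by over 2-fold from 2069 to 2603 and those lower by over 2-fold from 1307 to 1623. The changes greater in whole embryo than in yolk ran from 2409 to 2774 genes and the lower ones from 2907 to 3533. With library totals these became 4989 and 1737, since that scaling shifts every difference upward. Without 6 hpf replicates 1 and 2, an alternative chosen after seeing the data, 5719 genes rose and 4840 fell. In that fit the log2 changes of he1.1, gdf6a, dhrs3a, cpa6 and nkx2.7 were 14.2, 11.8, 12.3, 12.2 and 8.65. All of these were larger than with all libraries, so the sizes of these rises are poorly set. Other rises became smaller, such as those of fli1a (8.55) and wnt1 (6.47). In the named genes 2999 of 3036 refitted values kept their direction and call. Of the others, 27 lost the call, 9 gained it and 1 changed sign, myhz1.1 without 6 hpf replicates 1 and 2 (0.95). Many of these genes were named for the size of their change in these same data. The refits also shared most libraries with the main fit, so much of this agreement was set in advance. Of 1260 refitted counts of list members 48 moved by over 1.5 times. With library totals the lists held fewer members called lower, 6 in segmentation, 7 in Wnt, 3 each in Fgf, heart and lipoprotein, while 4 Nodal genes rose. With all 32 libraries in 1 fit, 4 segmentation, 4 neural crest and 3 neural plate genes fell, and 3 mesoderm and 3 left-right genes rose. With the 16 whole-embryo libraries, 15 muscle genes rose and 10 fell, and 44 Hox genes rose and 2 fell. Lipoprotein genes called lower numbered 4 without replicate 2 of 10 hpf. Members of the muscle list called lower ran from 3 to 7 when single libraries were left out. With the replicate number as a block 5934 genes rose and 5325 fell, 2524 and 1610 by over 2-fold, and 3048 and 3763 had a greater and a lower change than in yolk. The block changed no call of a named gene in whole embryo, and between tissues it changed those of hnf4a and tfa. Single counts below about 10 in a library limit genes near the filter level, such as slbp2 and ndr1.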

Other observations

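Genes of RNA binding and decay fell in 18 and rose in 8 of 44 tested cases (24.8% and 27.3% of all genes), but with library totals 12 fell and 14 rose. Dazl, cpeb1b and btg4, of egg and germ line, were already low at 6 hpf and fell further. Dazl, a germ cell translation activator, fell from 3.93 ± 1.36 to 0.463 ± 0.208 CPM (log2 change -3.07 ± 0.44, adjusted p = 0.000153). Cpeb1b, which controls poly(A) tails of stored mRNA, fell from 3.66 ± 1.33 to 0.677 ± 0.218 CPM (log2 change -2.43 ± 0.39, adjusted p = 0.000354). Btg4, which brings the deadenylase to maternal mRNA, fell from 1.17 ± 0.403 to 0.21 ± 0.157 CPM (log2 change -2.45 ± 0.65, adjusted p = 0.00805; 0.0554 without 6 hpf replicates 1 and 2). Zfp36l1a, which targets AU-rich mRNA for decay, rose from 116 ± 12.2 to 248 ± 24.8 CPM (log2 change 1.1 ± 0.12, adjusted p = 1.85e-05). Dazl also stands in the egg and germ cell lists.

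In the list of left-right axis and Kupffer's vesicle 6 of 18 tested members rose and 6 fell. Besides dand5, described above, the ciliary transcription factor gene rfx4 rose from 5.04, 5.22, 3.3 and 3.97 CPM at 6 hpf to 96.2, 88.8, 77.4 and 84.8 CPM at 10 hpf (log2 change 4.31 ± 0.18, adjusted p = 5.76e-08), with no overlap. Bulk libraries do not show in which tissue rfx4 rose, so its rise is not a measure of Kupffer's vesicle. Glycolysis and transport genes split, with 9 of 25 higher and 7 lower. Pgam1a rose from 3.72 ± 1.14 to 16 ± 3.85 CPM (log2 change 2.1 ± 0.27, adjusted p = 7.32e-05). The lactate dehydrogenase gene ldhba fell from 322 ± 85.5 to 171 ± 19.5 CPM (log2 change -0.91 ± 0.17, adjusted p = 0.00103). Of 28 genes of the endoplasmic reticulum and secretion 7 rose and 5 fell. Library totals gave 16 and 3, and leaving out replicate 2 of 10 hpf gave 4 and 4. The vesicle coat gene sec24d rose from 25.3 ± 11.3 to 77.2 ± 12.8 CPM (log2 change 1.61 ± 0.26, adjusted p = 0.000389). The chaperone gene hsp90b1 fell from 84.2 ± 10.2 to 31.9 ± 9.59 CPM (log2 change -1.40 ± 0.20, adjusted p = 0.000185).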
